A study of Homo sapiens with 4 samples.

Results

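The genes of the proteasome were taken from the deposited expression table as every symbol that starts with PSMA to PSMG followed by a number. Of 51 such symbols, 3 hyphenated antisense names were left out, no pseudogene name was found, and the transcripts of the other 48 were summed per symbol, out of 16504 gene symbols in all. By the roles of their products, 46 of the 48 are subunits, activators, an inhibitor or assembly factors of the proteasome. The other 2, PSMC3IP, a helper of meiotic recombination, and PSME3IP1, a nuclear partner of the activator PSME3, only share the name. PSMB8 and PSMA8 were not analysed here.

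The study sequenced RNA of cells that carry the label NB4, a line from acute promyelocytic leukemia, in 2 libraries of control cells, labelled NC and described in the study as carrying a control hairpin, and 2 libraries of CEBPG knockdown cells. CEBPG encodes a leucine-zipper transcription factor. In the study, short hairpin RNAs in a pLKO.1-puro vector were delivered by lentivirus and stable cells were kept by puromycin selection. The knockdown titles carry the number 3, which the labels do not explain, so effects of CEBPG loss and of a particular hairpin cannot be told apart. The labels do not say whether replicates came from separate cultures, so p-values measure only the spread between these libraries. CEBPG was at 17.1 and 18.1 FPKM in the controls and at 6.91 and 7.96 FPKM in the knockdown, where 42.2% of the control mean remained (log2 fold change -1.14, SE 0.082, limma adjusted p = 0.000836). FPKM, a fragment count scaled to exon length and to the mapped reads of a library, summed to between 346170 and 367105 per library and read depth was unknown.

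Markers did not follow the cell line label. Of 14 erythroid genes, 12 were at 10 FPKM or more in every library, and only AHSP had a mean under 1 FPKM. Of 10 promyelocyte and myeloid genes, 7 had a mean under 1 FPKM, among them the granule genes AZU1, at 0.370 to 0.570 FPKM, and PRTN3, at 0.0897 to 0.188 FPKM. The summed level of the erythroid genes was 8491 and 8025 FPKM in the controls and 9489 and 8927 FPKM in the knockdown, without overlap, with 2 of the 13 tested genes called higher, 3 lower and 8 not called in limma, against 10.9% higher and 9.99% lower of all tested genes. Both higher calls, HBG1 and HBG2, were lost without either knockdown library and with no filter on low values. That of HBG2 was also lost without either control and without a trend. With each library left out the changes stayed between 0.33 and 0.40 for HBG1 and between 0.22 and 0.33 for HBG2. The genes of this list moved in different directions, with a median change of -0.020. HBG1 and HBG2, fetal globins, together held 4635 and 4374 FPKM in the controls and 5764 and 5377 FPKM in the knockdown, whereas the embryonic globin HBZ was at 56.2% and ALAS2, an enzyme of heme synthesis, at 58.2% of the control mean in the knockdown. The summed level of the myeloid genes was 42.5 and 43.4 against 44.8 and 45.1 FPKM, with 1 of 3 tested genes, LYZ, called lower (-0.30) and CD33 (0.65) and SPI1 (0.15) not called in limma. The call of LYZ was lost without control 1, knockdown 1 or knockdown 2 (limma, adjusted p from 0.0798 to 0.141). Their part in the results was not tested. In bulk RNA, fewer cells of a type and less RNA per cell cannot be told apart.

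The proteasome degrades proteins that carry chains of ubiquitin. Its barrel-shaped core particle is built from rings of alpha (PSMA) and beta (PSMB) subunits, of which PSMB5, PSMB6 and PSMB7 carry the peptide-cutting sites. In cells exposed to interferon, PSMB8, PSMB9 and PSMB10 take their places to form the immunoproteasome, which serves antigen presentation. The regulatory particle that caps the core has a base of ATPases (PSMC) and scaffolds and a lid (both PSMD), which bind, unfold and deubiquitinate substrates. Other caps are the activators PSME1 to PSME4, and PSMF1 is an inhibitor. The transcription factor NFE2L1 is known for raising the constitutive genes of the core and the regulatory particle together when proteasome capacity falls short.

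Most proteasome genes differed little between knockdown and control. Of the 46 genes whose mean reached 1 FPKM, PSME1 and PSMD5 were higher in the knockdown and none was lower at an adjusted p under 0.05 in limma, which is 4.35% of the 46 against 20.9% of all 10968 tested genes (10.9% higher and 9.99% lower). In limma 4 members were higher and 7 lower at an unadjusted p under 0.05, which is 23.9% against 37.0% of all tested genes. Both PSMB9 and PSMB11 fell under the filter and were not tested. The median log2 fold change of the 46 members was -0.042, against 0.015 over all tested genes, and the median absolute change was 0.088 against 0.146. Of the members, 42 (91.3%) changed by less than 0.2 on the log2(FPKM + 1) scale, against 63.1% of all tested genes, and 2 (4.35%), PSME1 and PSMB3, changed by more than 0.5, against 6.43%. For 44 of 46 the 95% interval of the change lay within -0.5 to 0.5, the exceptions being PSME1 and PSMB3. The members were more abundant than tested genes in general, with a median of 74.6 FPKM against 9.86 FPKM. Genes of like abundance were not compared. The control and knockdown values did not overlap in 26 members, 10 higher and 16 lower, which is 56.5% against 64.8% of all tested genes (34.3% higher and 30.5% lower).

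The split of calls depended on the scaling of the columns. After median-ratio scaling 2 members were called higher and 7 lower, and after scaling to one column sum 3 were higher and 7 lower, and the median log2 fold change of the members was -0.0600 and -0.0635. The called members were 19.6% and 21.7% of the 46, against 24.5% and 24.4% of all genes tested under these scalings. The 7 lower genes under either scaling were PSMA4, PSMB1, PSMB7, PSMC1, PSMC2, PSMD1 and PSMD4, each changed by between -0.16 and -0.23, and the third higher gene was PSMB4. All 48 members together held 1.10% and 1.11% of gene FPKM in the controls and 1.08% and 1.06% in the knockdown. The corresponding sums were 4040 and 3830 FPKM against 3946 and 3759 FPKM, so the shares of the groups did not overlap while the sums did.

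**Figure D1:**
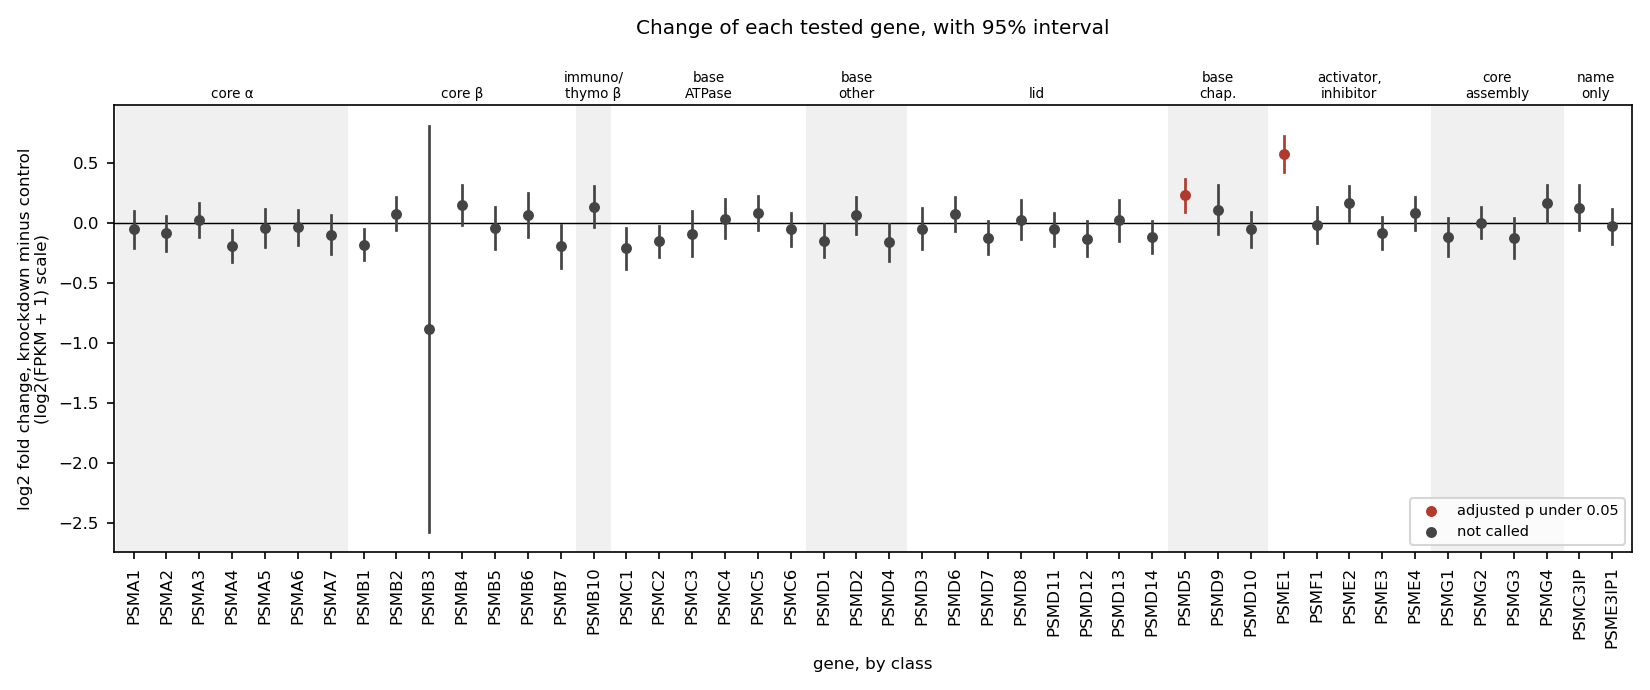
Log2 fold change of each of the 46 tested genes (knockdown minus control, log2(FPKM + 1) scale) by class, with points for the estimate and vertical lines for the 95% interval from limma, and red for an adjusted p under 0.05. PSME1 at 0.57 stands above the rest, PSMD5 is at 0.23, and PSMB3 has an interval from -2.57 to 0.81.

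Subunit transcripts were abundant. The median of the 46 tested members was 74.6 FPKM, averaged over libraries, against 9.86 FPKM for all tested genes, and 45 of them were at 10 FPKM or more in every library. Among the 7 alpha genes, mean levels ran from 41.8 FPKM for PSMA5 to 165 FPKM for PSMA7. Among the 7 constitutive beta genes they ran from 75.4 FPKM for PSMB2 to 253 FPKM for PSMB4, leaving aside PSMB3 at 12.1 FPKM. Genes of the regulatory particle ran from 23.5 FPKM for the ATPase PSMC1 to 162 FPKM for PSMD4, an intrinsic ubiquitin receptor. Assembly factors ran from 19.7 FPKM for PSMD9 to 87.5 FPKM for PSMG1.

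**Figure D2:**
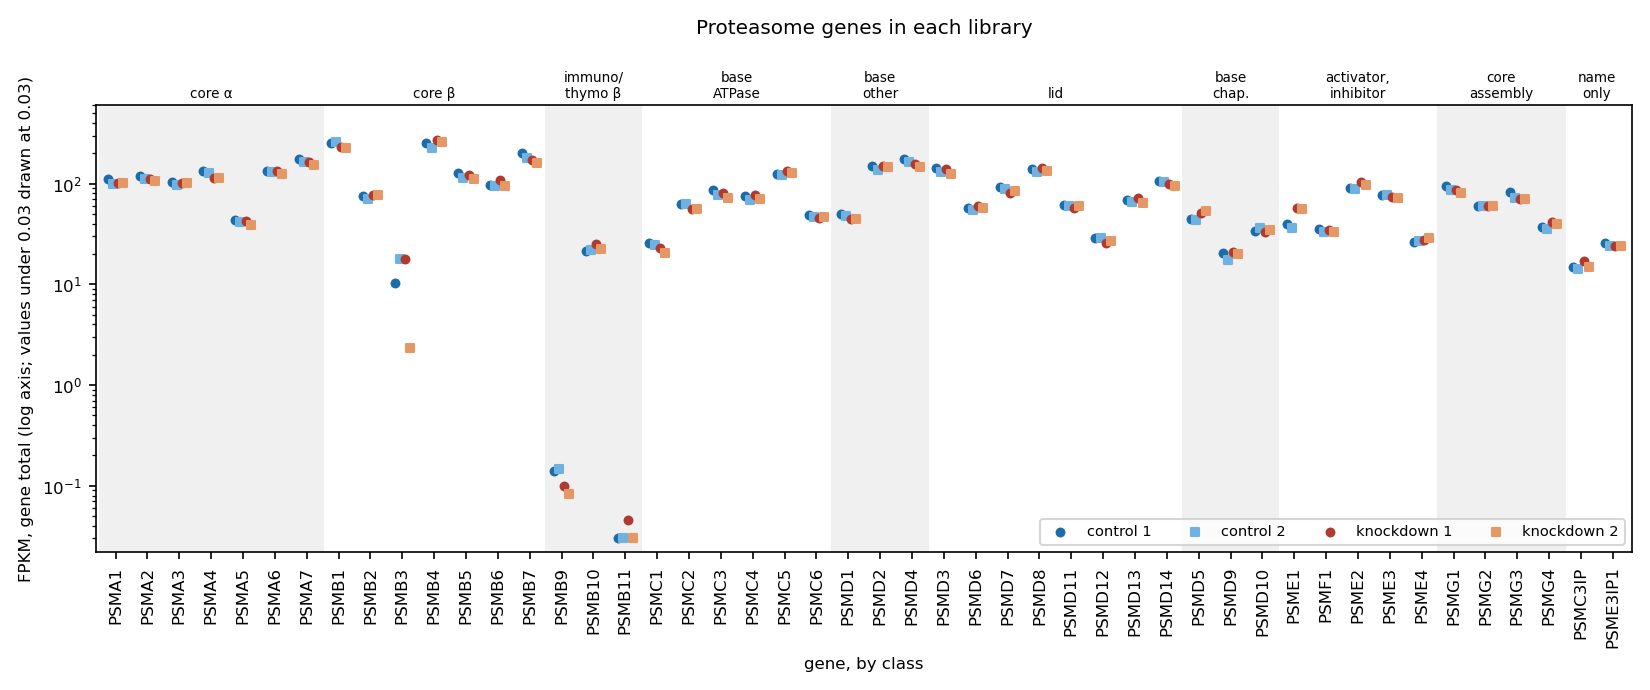
FPKM of the 48 genes in each library on a log axis, by class, with circles for replicate 1, squares for replicate 2, blue for control and red or orange for knockdown; values under 0.03 FPKM are drawn at 0.03. PSMB3 ranged from 2.32 to 18.1 FPKM and PSME1 from 36.4 to 57.9 FPKM, and PSMB9 and PSMB11 lie below 0.15 FPKM.

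The alpha genes form the outer rings of the core, whose gate controls entry of substrates. Their median change was -0.054, with 6 of 7 estimates below 0 and none of the 7 called in limma, where 1 had an unadjusted p under 0.05. That gene was PSMA4, at 133 and 128 FPKM in the controls and 115 and 113 FPKM in the knockdown. Both knockdown libraries lay below both controls, and the change of -0.19 (SE 0.056) just missed the threshold (limma, adjusted p = 0.05002). PSMA3, the highest alpha gene in fold change, was at 103 and 96.8 FPKM against 102 and 100.8 FPKM, so the groups overlapped (0.024, SE 0.058, limma adjusted p = 0.802). For 5 of the 7 alpha genes the groups overlapped.

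Of the 7 constitutive beta genes, which include the 3 with catalytic sites, none was called in limma, and PSMB1 and PSMB7 had an unadjusted p under 0.05. PSMB7, which carries the trypsin-like site, was at 202 and 179.6 FPKM in the controls and 173 and 159.7 FPKM in the knockdown. The knockdown values were the lower ones, without overlap (-0.20, 95% interval -0.38 to -0.014, limma adjusted p = 0.113). Without control 2 it was called lower (-0.28, limma adjusted p = 0.0443). PSMB6, which carries the caspase-like site, was at 98.1 and 94.03 FPKM against 107.6 and 93.9 FPKM, with overlap (0.065, 95% interval -0.12 to 0.25). PSMB5, which carries the chymotrypsin-like site that proteasome inhibitors bind, was at 126 and 114 FPKM against 121 and 112 FPKM, again with overlap (-0.042, 95% interval -0.21 to 0.13). Neither of the 2 was called (limma, adjusted p = 0.577 and 0.71).

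PSMB1 and PSMB4 are non-catalytic beta subunits and were the most abundant members. PSMB1 was at 256 and 261 FPKM in the controls and 229.6 and 226 FPKM in the knockdown, with both knockdown libraries lower (-0.18, SE 0.055, limma adjusted p = 0.0594). PSMB4 was at 252 and 228 FPKM against 273 and 260.03 FPKM, so it lay on the other side, also without overlap (0.15, SE 0.070, limma adjusted p = 0.168). PSMB2, also non-catalytic, was at 75.7 and 71.02 FPKM against 76.9 and 77.9 FPKM, slightly higher in both knockdown libraries (0.078, limma adjusted p = 0.381).

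PSMB3 had by far the widest spread of the members. It was at 10.2 and 18.1 FPKM in the controls and at 17.9 and 2.32 FPKM in the knockdown, so replicates differed more than groups. The change was -0.88 with a 95% interval of -2.57 to 0.81 (limma adjusted p = 0.409). It was 0.37 without knockdown 2 and -2.14 without knockdown 1 (limma adjusted p = 0.0111), so its sign turned with knockdown 2. The table lists 3 transcripts of PSMB3, and 2 of them hold no value in any library, as do transcripts of 138 symbols in all. The part of this in the low and uneven PSMB3 level was not tested.

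PSMB5 had an even total but uneven transcripts. The transcript NM_002797 held 45.7% and 45.7% of PSMB5 FPKM in the controls and 35.9% in knockdown 1, but 93.1% in knockdown 2. The other transcripts, NM_001144932 and NM_001130725, were at 43.4 and 25.2 FPKM in control 1 and at 5.66 and 2.13 FPKM in knockdown 2. The shares in the knockdown libraries thus lay on either side of those in the controls. Of the 69 member transcripts with a mean of at least 1 FPKM, none was called in a fit of transcripts, where 25 of 15795 transcripts (0.158%) were called in all, and 8 had an unadjusted p under 0.05 (limma).

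**Figure D3:**
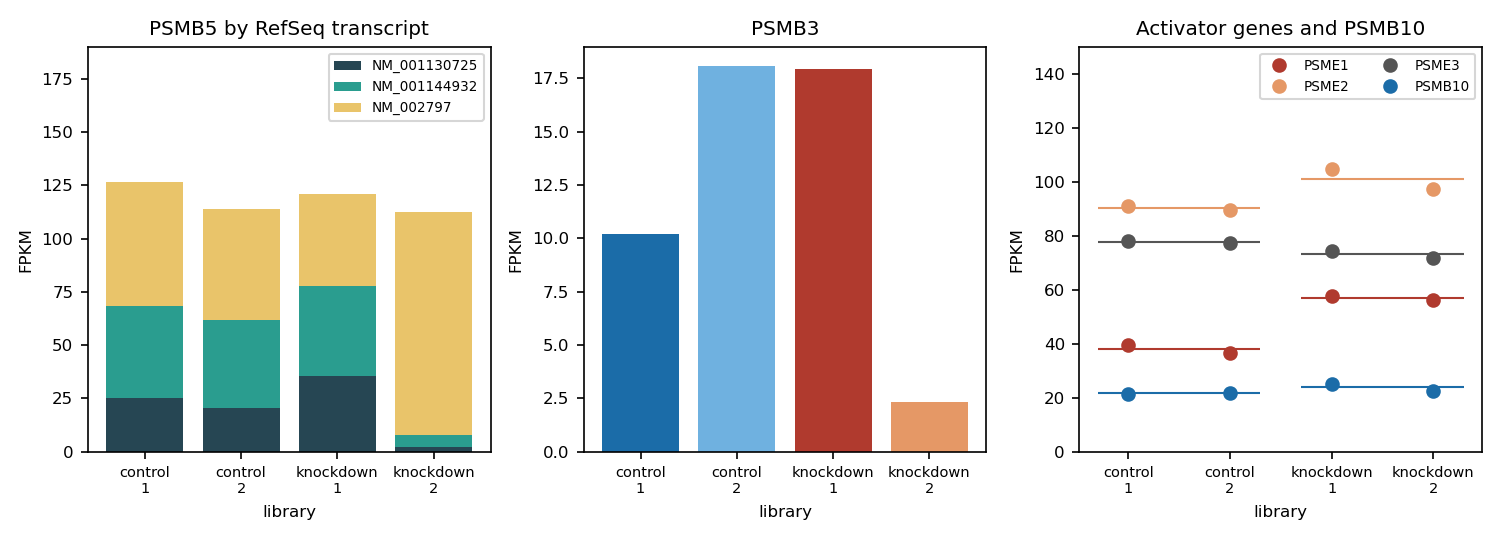
FPKM per library of PSMB5 as stacked RefSeq transcripts (left), of PSMB3 (middle) and of PSME1, PSME2, PSME3 and PSMB10 (right, points for libraries and lines for group means). PSMB5 totals stay between 112 and 126 FPKM while transcripts shift in knockdown 2, PSMB3 drops to 2.32 FPKM in that library, and both PSME1 values of the knockdown lie above both controls.

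Immunoproteasome genes were low next to their constitutive counterparts. PSMB10, the counterpart of PSMB7, was at 21.5 and 21.8 FPKM in the controls and at 25.3 and 22.6 FPKM in the knockdown. The knockdown values were slightly higher without overlap, and the change was not called (0.13, SE 0.072, limma adjusted p = 0.22). Per length it stood at 10.7% and 12.1% of PSMB7 in the controls and at 14.6% and 14.1% in the knockdown. PSMB9, the counterpart of PSMB6, was at 0.142 and 0.148 FPKM against 0.0991 and 0.0821 FPKM, which is 0.144% and 0.157% of PSMB6 in the controls and 0.0921% and 0.0874% in the knockdown. PSMB11, the subunit of the thymus proteasome, was listed at 0 in both controls and at 0.0452 and 0.00102 FPKM in the knockdown. PSMB9 and PSMB11 fell under the filter of the main fit, and neither was called in the fit with no filter on low values. No difference was thus established for either.

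The 6 ATPases of the base form the ring that unfolds substrates. Their median change was -0.071, with none called in limma and 2 at an unadjusted p under 0.05. PSMC1 was at 25.7 and 24.8 FPKM in the controls and at 22.9 and 20.5 FPKM in the knockdown, the lowest change of the ring (-0.21, SE 0.072, limma adjusted p = 0.08). PSMC2 was at 62.6 and 62.2 FPKM against 55.9 and 56.1 FPKM (-0.15, SE 0.054, limma adjusted p = 0.0865). Both lay lower in each knockdown library, whereas PSMC5, at 124 and 123 FPKM against 135 and 127 FPKM, lay higher in each (0.084, SE 0.059, limma adjusted p = 0.341). The ring thus held estimates on either side of 0. The most abundant PSMC5 transcript, NM_002805, changed by -0.0048, and the difference in the total came from NM_001199163, at 22.9 and 24.6 FPKM against 31.5 and 31.5 FPKM (0.39, SE 0.064, limma adjusted p = 0.101).

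The 3 other base subunits are the scaffolds PSMD1 and PSMD2 and the ubiquitin receptor PSMD4. PSMD4 was at 177 and 164 FPKM in the controls and 157 and 148 FPKM in the knockdown (-0.16, SE 0.065, limma adjusted p = 0.122), and PSMD1 at 50.4 and 48.2 FPKM against 44.4 and 44.5 FPKM (-0.15, SE 0.057, limma adjusted p = 0.112). Both had non-overlapping groups and lower knockdown values. PSMD2 was at 148 and 135 FPKM against 150.4 and 146 FPKM, with overlap (0.064, SE 0.065, limma adjusted p = 0.515).

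The lid was represented by 8 members, and its subunit SEM1, which has another name, was counted in a separate list. The changes of the 8 ran from -0.13 for PSMD12 to 0.074 for PSMD6, with a median of -0.051, and none was called or reached an unadjusted p under 0.05 in limma. PSMD14, the lid enzyme that removes ubiquitin from bound substrates, was at 107 and 104.9 FPKM in the controls and at 99.6 and 95.6 FPKM in the knockdown. The knockdown values were lower without overlap, and the 95% interval of the change was -0.25 to 0.019. PSMD12 was at 28.8 and 29.1 FPKM against 25.6 and 27.1 FPKM (95% interval -0.27 to 0.013), and PSMD6 at 57.4 and 54.6 FPKM against 60.2 and 57.8 FPKM (95% interval -0.067 to 0.22).

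Among the activators was the largest called change of the members. PSME1 and PSME2 encode the subunits of the interferon-inducible ring known as PA28, which opens the core gate and favors the release of peptides for antigen presentation. PSME1 was at 39.7 and 36.4 FPKM in the controls and at 57.9 and 56.4 FPKM in the knockdown. Both knockdown libraries lay well above both controls, and the mean rose from 38.0 ± 2.33 to 57.1 ± 1.06 FPKM (SD, n = 2 each). The log2 fold change was 0.57 (SE 0.065, 95% interval 0.42 to 0.73, limma adjusted p = 0.00271), larger in absolute size than 95.6% of all tested genes. Leaving out each library in turn gave 0.51 to 0.64, with adjusted p from 0.00284 to 0.0247 (limma). The call was lost in the test of transcripts, where NM_006263, with 96.3% to 98.3% of PSME1 FPKM, changed by 0.58 (limma adjusted p = 0.0775).

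PSME2, the partner of PSME1, was at 90.9 and 89.5 FPKM in the controls and at 104.7 and 97.6 FPKM in the knockdown. Both knockdown values were higher, but the change of 0.16 (95% interval 0.019 to 0.31) did not pass the test (limma adjusted p = 0.101). Per length, PSME1 stood at 43.7% and 40.7% of PSME2 in the controls and at 55.3% and 57.8% in the knockdown, without overlap. PSME3, which forms a separate nuclear activator ring, was at 78.0 and 77.4 FPKM against 74.5 and 71.9 FPKM (-0.085, 95% interval -0.22 to 0.046). PSME4, a large activator of nuclear proteasomes, was at 26.5 and 26.7 FPKM against 27.8 and 28.6 FPKM, slightly higher without overlap (0.081), and the inhibitor PSMF1 at 35.2 and 32.9 FPKM against 34.3 and 32.8 FPKM (-0.019). None of these 3 was called (limma, adjusted p = 0.306, 0.348 and 0.852).

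PSME1 lies on chromosome 14 at positions 24136194 to 24138962 and PSME2 at positions 24143365 to 24146610 (RefSeq, GRCh38.p14), 4402 bases apart and on opposite strands. Windows around the starts of these genes, of PSMB10 and PSMB9 and of PSMD5, the other gene called higher, are shown because these are the called members, the partner of PSME1 and the immunoproteasome genes. Each window spans 190 bases before to 20 bases after the RefSeq start (GRCh38.p14) and is read along the gene. Capitals mark letters of the antioxidant response element (ARE, TGACNNNGC), the kind of site that NFE2L1 and NFE2L2 bind with small MAF proteins, and of the core of the interferon-stimulated response element (ISRE, the bases GAAA, any 2 bases and GAAA again), on either strand. The windows are chr14:24136004-24136213 (plus strand) for PSME1, chr14:24146591-24146800 (minus) for PSME2, chr16:67936831-67937040 (minus) for PSMB10, chr6:32854002-32854211 (plus) for PSMB9 and chr9:120842903-120843112 (minus) for PSMD5.
PSME1: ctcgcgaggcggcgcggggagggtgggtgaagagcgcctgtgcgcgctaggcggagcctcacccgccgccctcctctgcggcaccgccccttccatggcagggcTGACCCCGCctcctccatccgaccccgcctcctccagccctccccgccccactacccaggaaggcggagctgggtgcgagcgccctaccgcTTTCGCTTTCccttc
PSME2: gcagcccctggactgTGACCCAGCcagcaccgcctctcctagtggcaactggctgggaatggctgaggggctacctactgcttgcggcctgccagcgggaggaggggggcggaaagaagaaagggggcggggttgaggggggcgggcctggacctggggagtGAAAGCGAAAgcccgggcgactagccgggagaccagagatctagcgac
PSMB10: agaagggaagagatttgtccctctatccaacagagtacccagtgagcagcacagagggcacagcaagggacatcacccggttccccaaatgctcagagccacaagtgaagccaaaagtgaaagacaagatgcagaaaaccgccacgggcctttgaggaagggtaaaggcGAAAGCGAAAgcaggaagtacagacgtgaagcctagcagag
PSMB9: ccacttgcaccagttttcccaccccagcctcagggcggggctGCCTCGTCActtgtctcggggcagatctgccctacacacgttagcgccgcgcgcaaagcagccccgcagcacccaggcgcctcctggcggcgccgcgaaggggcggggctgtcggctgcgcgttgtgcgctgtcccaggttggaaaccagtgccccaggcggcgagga
PSMD5: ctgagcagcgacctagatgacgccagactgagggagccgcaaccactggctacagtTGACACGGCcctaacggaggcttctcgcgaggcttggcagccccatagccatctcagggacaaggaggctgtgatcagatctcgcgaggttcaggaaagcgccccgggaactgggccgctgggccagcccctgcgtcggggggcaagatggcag
The same ISRE letters, GAAAGCGAAA, start 28 bases before the start of PSME2 and 21 before that of PSMB10, and stand on the other strand from base 6 of PSME1. The ARE letters start 86 bases before PSME1, 175 before PSME2 and 134 before PSMD5, and stand on the other strand from 148 bases before PSMB9, whose window holds no ISRE letters.

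These letters were counted in the RefSeq windows of 250 bases before to 50 after the start, on both strands. They were counted for the 42 members with a window and for all 35116 windows, which were not limited to the genes tested here. PSMA7, PSMB1, PSMB6, PSMB7, PSMD4 and PSMG3 had no window. The ISRE core was present in 6 members (14.3%), namely PSMA4, PSMB4, PSMB10, PSME1, PSME2 and PSMG4, against 3.57% of all windows. Their changes were -0.19, 0.15, 0.13, 0.57, 0.16 and 0.16 on the log2 scale. PSME1 was the only one called, where 20.9% of all tested genes were called. The ARE was present in 13 members (31.0%) against 13.3%. The 13 held both called genes, PSME1 and PSMD5, where 20.9% of all tested genes were called. The other tested genes with it lay on either side of 0, from -0.88 for PSMB3 and -0.15 for PSMD1 to 0.16 for PSME2. The CCAAT box was in 21 members (50%) against 34.6%, and the gamma-activated site TTCNNNGAA in 4 (9.52%) against 7.66%. The C/EBP-ATF response element TGATGNAA was in 1 member, PSMF1 (2.38%), against 3.62%, and the C/EBP palindrome TTGCGCAA in 0 of 42 against 0.151%. Matches of different motifs did not share bases in the 5 windows shown. A match is a description of these letters, not a bound site.

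PSMD5 was the other called member. It is a chaperone that holds part of the ATPase ring during assembly of the base. It was at 44.2 and 44.1 FPKM in the controls and at 50.7 and 53.4 FPKM in the knockdown, so both knockdown libraries were higher by a small margin. The change was 0.23 (SE 0.058, 95% interval 0.095 to 0.37, limma adjusted p = 0.0336). The call was lost without any single library, control 1, control 2, knockdown 1 or knockdown 2 (limma, adjusted p from 0.0555 to 0.205), while the change stayed between 0.20 and 0.27. The other base chaperones, PSMD9 and PSMD10, were at 20.5 and 17.4 FPKM against 20.8 and 20.04 FPKM and at 34.1 and 36.3 FPKM against 33.4 and 34.4 FPKM, with overlap in each, and were not called (limma, adjusted p = 0.399 and 0.584).

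Assembly of the core is guided by the pairs PSMG1 with PSMG2 and PSMG3 with PSMG4. None of the 4 was called in limma, and PSMG4 had an unadjusted p under 0.05. PSMG4 was at 37.5 and 35.1 FPKM in the controls and at 42.1 and 39.4 FPKM in the knockdown, higher without overlap (0.16, SE 0.065, limma adjusted p = 0.121). Its partner PSMG3 was at 81.8 and 72.6 FPKM against 71.2 and 70.07 FPKM, lower without overlap (-0.12, SE 0.071, limma adjusted p = 0.251). PSMG1 was at 95.03 and 87.1 FPKM against 86.4 and 81.6 FPKM (-0.11, limma adjusted p = 0.261). PSMG2 was the most even member, at 60.3, 59.6, 59.6 and 60.4 FPKM in the same order.

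Levels of the members also differed between replicates of a group. Of the 46 tested members, 40 were lower in control 2 than in control 1, with a median difference of -0.067, where 67.1% of all tested genes were lower, with a median of -0.052. In the knockdown, 34 of 46 were lower in replicate 2 than in replicate 1, with a median of -0.062, where 48.9% of all tested genes were lower, with a median of 0.0030. The median replicate SD of a member was 0.062 on the log2 scale, against a median absolute change of 0.088. The median log2 fold change of the members was 0.0074 without control 1 and 0.012 without knockdown 2, so its sign rested on single libraries.

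The 2 genes that share only the name were not called. PSMC3IP was at 14.99 and 14.2 FPKM in the controls and at 17.1 and 14.98 FPKM in the knockdown (0.13, limma adjusted p = 0.289), and PSME3IP1 at 25.5 and 24.03 FPKM against 24.2 and 24.3 FPKM (-0.029, limma adjusted p = 0.765), with overlap in each.

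Proteasome genes that carry other names were read from a separate list of 10, all tested. Of these, 3 were lower, 0 were higher and 7 were not called (limma), and in all 5 had an unadjusted p under 0.05. Among the 5, AKIRIN2 went the other way, at 20.1 and 18.5 FPKM against 21.9 and 22.1 FPKM, higher without overlap (0.18, limma adjusted p = 0.0959). Over all tested genes 10.9% were called higher, 9.99% lower and 37.0% had an unadjusted p under 0.05, which is the background for this and the following lists. USP14, which trims ubiquitin from substrates at the regulatory particle, fell from 55.5 and 57.5 FPKM to 43.8 and 45.1 FPKM (-0.34, SE 0.057, limma adjusted p = 0.00997). SEM1, the smallest lid subunit, fell from 102.5 and 102.3 FPKM to 84.8 and 80.2 FPKM (-0.31, SE 0.058, limma adjusted p = 0.0137). TXNL1, a redox protein bound to the regulatory particle, fell from 54.2 and 52.5 FPKM to 43.2 and 47.2 FPKM (-0.24, limma adjusted p = 0.0455). In all 3 both knockdown libraries were lower. The count of genes called lower was 4 at a minimum mean of 5 FPKM, under either scaling and with the replicate number as a block. The count of 3 was 2 with no filter on low values, 2 without a trend, 2 without either control and 0 without either knockdown library. POMP, the chaperone that matures the core, was at 84.1 and 82.1 FPKM against 73.5 and 72.3 FPKM, also without overlap (-0.19, limma adjusted p = 0.0537), and the ubiquitin receptor ADRM1 was at 82.1 and 72.2 FPKM against 88.9 and 80.6 FPKM, with overlap (0.14, limma adjusted p = 0.278).

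The list for the NFE2L1 axis held 9 genes, all tested, with a median change of 0.013, of which 3 were higher, 1 lower and 5 not called (limma). The count of higher genes was 0 with no filter on low values, 0 without a trend, 1 without either control and 0 without either knockdown library, where the count of lower genes was 0 too. The count of lower genes was 2 at a minimum mean of 5 FPKM, under either scaling and with the replicate number as a block. NFE2L1 itself fell from 29.6 and 28.1 FPKM to 23.3 and 23.5 FPKM (-0.29, SE 0.060, limma adjusted p = 0.0191). NFE2L2, the related factor of the antioxidant response, rose from 41.4 and 41.4 FPKM to 50.8 and 48.6 FPKM (0.26, SE 0.057, limma adjusted p = 0.0233). Their partner MAFG rose by 0.21 (limma adjusted p = 0.0412), and SYVN1, a ubiquitin ligase of the endoplasmic reticulum, by 0.25 (limma adjusted p = 0.0342). The enzymes that process NFE2L1, DDI2 and NGLY1, changed by -0.16 and -0.23 and were not called (limma, adjusted p = 0.143 and 0.0628).

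The list for ubiquitin supply and shuttles held 9 genes, all tested, of which 2 were higher, 0 lower and 7 not called (limma), and 4 had an unadjusted p under 0.05. SQSTM1, which hands ubiquitinated cargo to autophagy, rose from 79.9 and 73.8 FPKM to 141 and 135 FPKM, with both knockdown libraries well above both controls (0.84, SE 0.064, limma adjusted p = 0.000998). It was called without each library in turn, where it was the only gene of the list called. UBQLN2, a shuttle that carries ubiquitinated proteins to the proteasome, rose by 0.24 (limma adjusted p = 0.0487), a call also lost under either scaling, with no filter and without a trend (limma, adjusted p from 0.0614 to 0.0939). The ubiquitin genes UBB and RPS27A changed by -0.045 and 0.12 and were not called (limma, adjusted p = 0.635 and 0.245).

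Of 11 genes of the p97 unfoldase VCP and its adaptors, 3 were lower, 0 higher and 8 not called (limma), and 5 had an unadjusted p under 0.05, against 9.99% lower and 37.0% of all tested genes. The count of lower genes was 1 with no filter on low values, 1 without a trend, 1 without control 1, 2 without control 2 and 1 without either knockdown library. VCP was at 89.5 and 83.4 FPKM against 89.4 and 85.0 FPKM (0.013). Of the 5 genes at an unadjusted p under 0.05, NPLOC4 lay higher without overlap, at 43.5 and 41.9 FPKM against 47.5 and 46.9 FPKM (0.14, limma adjusted p = 0.119). The lower genes were UFD1 (-0.26, limma adjusted p = 0.0302), a cofactor of VCP in pulling out ubiquitinated proteins, FAF2 (-0.22, limma adjusted p = 0.0467), and DERL2 (-0.54, limma adjusted p = 0.0068), a membrane protein of retrotranslocation that was at 4.55 and 4.40 FPKM against 2.73 and 2.78 FPKM.

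Class I antigen processing is the pathway that PSME1, PSME2 and the immunoproteasome serve. Of its 10 listed genes analysed here 8 were tested, with 4 higher, 1 lower and 3 not called (limma). The count of higher genes was 0 with no filter on low values, 2 at a minimum mean of 5 FPKM, 2 without control 1, 1 without control 2 and 0 without either knockdown library, and that of lower genes was 0 with no filter and without either knockdown library. B2M, the light chain of class I molecules, rose from 104.8 and 100.1 FPKM to 125.4 and 123 FPKM (0.28, SE 0.057, limma adjusted p = 0.0184). ERAP1, which trims peptides, rose by 0.25 (limma adjusted p = 0.0321). TAPBP, which loads them, rose from 2.59 and 2.29 FPKM to 3.25 and 3.48 FPKM (0.34, limma adjusted p = 0.046), and the transcription factor IRF1 from 2.19 and 1.69 FPKM to 3.25 and 3.25 FPKM (0.54, SE 0.11, limma adjusted p = 0.0196). CALR, a chaperone of the endoplasmic reticulum, fell from 366 and 339 FPKM to 278 and 265 FPKM (-0.37, SE 0.065, limma adjusted p = 0.0112). CANX and PDIA3 also lay lower without overlap, by -0.076 and -0.12, and were not called (limma, adjusted p = 0.355 and 0.185). The peptide transporter was low, with TAP1 at 0.310 and 0.314 FPKM against 0.419 and 0.468 FPKM and TAP2 at 0.893 and 0.940 FPKM against 1.94 and 1.37 FPKM (limma adjusted p = 0.0559 for TAP2). These lists were chosen with earlier results of these data known, and of their called genes only SQSTM1 and DERL2 were called without each library in turn.

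**Figure D4:**
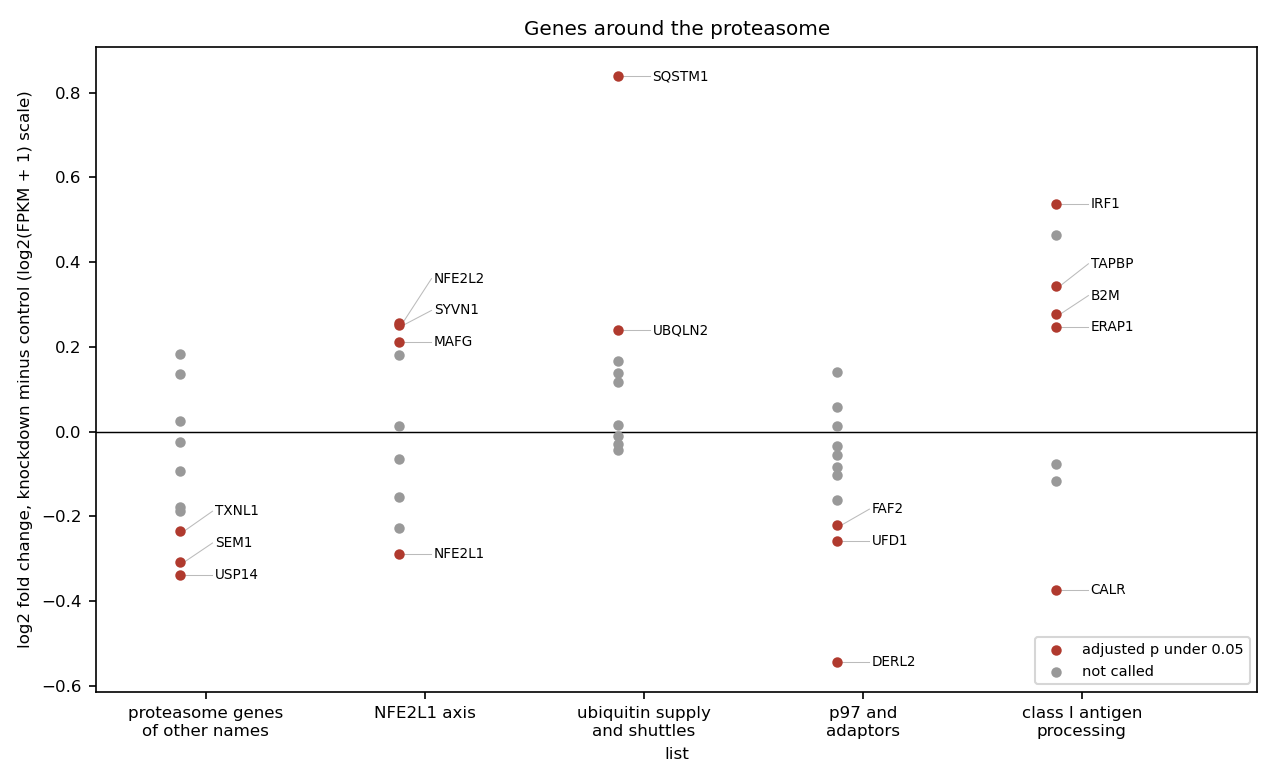
Log2 fold change (knockdown minus control, log2(FPKM + 1) scale) of the tested genes of 5 lists around the proteasome, each point a gene, with red and a name for an adjusted p under 0.05. SQSTM1 at 0.84 and DERL2 at -0.54 lie farthest from 0 on either side.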

How the data were processed

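The authors filtered reads, mapped them with HISAT (HISAT2 2.0.5 and hg38 in the submitters' processing notes) and deposited FPKM values of 4 libraries in 1 table, whose 29265 entries are RefSeq transcripts. The FPKM program and the annotation release are not given in the sources used here. Entries with no value in any library (183) or no symbol (164) were left out, and the other 28918 were summed to gene symbols. Among 2798 low genes with 1 transcript, the most common ratio of the 2 control values held for 0.286%, so whole reads were not recovered, and no counting interval could be given. FPKM is scaled to the mapped reads of a library, so abundant transcripts that change move the values of all others.

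Knockdown and control were compared on log2(FPKM + 1) with limma 3.58.1 (R 4.3.3), moderated along a trend in the mean, for the 10968 genes whose mean reached 1 FPKM. Tests were 2-sided and adjusted over all of them by Benjamini-Hochberg. Fold changes on this scale understate those of low genes. Values per library are given for called members, PSMB5 to PSMB10, and the highest and lowest of each class. Genes of other lists were named where called. All other members and list genes shown with values, such as PSMB1, PSMC2, PSMD14, POMP, UBB and TAP1, and the motifs, were chosen after values were seen. The members and lists were chosen with earlier results of these data known. Positions and promoter windows come from RefSeq on GRCh38.p14. Alternatives were a pseudocount of 0.1, no filter, a minimum mean of 5 FPKM, median-ratio and sum scaling, no trend, the replicate number as a block, transcripts, omission of PSMC3IP and PSME3IP1, and each library left out. Those for CEBPG and the other lists were added after seeing the data. Some genes of the lists are not reported here.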

Additional observations from a re-analysis of the deposited data

How the results depend on the processing

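The number of members called higher (2) was 1 with no filter on low values, 1 without a trend, 5 with the replicate block and 0 for transcripts, and 1 to 1 with each library left out. The number called lower (0) was 1 at a mean of at least 5 FPKM, 7 after median-ratio scaling, 7 after scaling to one sum and 6 with the replicate block, and 0 to 1 with each library left out. Calls over all genes moved too, to 24.5% and 24.4% under the scalings and 31.4% with the block, against 19.6%, 21.7% and 23.9% of the members. The block was not used further, because the labels do not say what a replicate number shares, and same-numbered libraries deviated from their group means with a correlation of 0.101. The median log2 fold change of the members stayed between -0.070 and 0.012 in all alternatives run.

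Estimates changed sign for 17 members, among them PSMB3, whose main estimate was -0.88. With each library left out they ranged from -0.12 to 0.015 for PSMA1, -0.019 to 0.066 for PSMA3, -0.11 to 0.024 for PSMA5, -0.087 to 0.012 for PSMA6, -2.14 to 0.37 for PSMB3, -0.12 to 0.031 for PSMB5, -0.032 to 0.16 for PSMB6, -0.019 to 0.091 for PSMC4, -0.0017 to 0.13 for PSMD2, -0.12 to 0.019 for PSMD3, -0.032 to 0.087 for PSMD8, -0.0048 to 0.22 for PSMD9, -0.062 to 0.10 for PSMD13, -0.069 to 0.011 for PSME3IP1, -0.065 to 0.027 for PSMF1 and -0.0093 to 0.011 for PSMG2. PSMD13 was at -0.0011 after scaling to one sum, and PSMG2 at -0.018 and -0.021 after median-ratio and sum scaling. By their most abundant transcript PSMB5 was at 0.29 and PSMC5 at -0.0048. The causes were not tested. With 2 libraries per group and no read counts, small changes were called in some alternatives and not in others.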
